A study of Tribolium castaneum with 9 samples.

Results

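The deposited annotation of adult red flour beetles (Tribolium castaneum, a pest of stored grain) names 8 genes as glucose dehydrogenases among the 5467 genes of the table analysed here. They are all the genes whose description in the protein database, taken at its first title, holds the words glucose dehydrogenase. The table itself lists genes that were selected on measured values: each differs by 1 log2 unit or more in some comparison that the authors made among these same libraries. Differences between the groups are therefore given below as a description, and no p-value is printed. Calls at an adjusted p under 0.05 are part of that description, and how many members were called is not evidence about the family. The first group is fat body of beetles treated with carbonyl sulfide (COS, a fumigant gas), with 3 libraries. The second is Malpighian tubules of COS-treated beetles, with 3 libraries. The third is the untreated whole body, with 3 libraries. All 9 libraries come from adults of a phenotype labelled as susceptible, and no dose, exposure time, sex or number of animals is given. The titles of the fat body libraries carry a number that the tubule titles lack, and the labels do not explain it. Whether the beetles of both organs had the same COS treatment is therefore not known.

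Glucose dehydrogenases belong to the glucose-methanol-choline (GMC) oxidoreductases, flavoenzymes that carry a bound FAD and oxidise the alcohol groups of sugars and other small molecules. Unlike glucose-6-phosphate dehydrogenase, they act on free glucose and pass the electrons to a quinone or another acceptor in place of NADP. In Drosophila melanogaster the enzyme encoded by Gld takes part in the emergence of the adult from the pupal case and is made in parts of the adult reproductive tract. Insect genomes hold many related GMC genes, and the substrate of most of them is unknown.

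The 8 members were alike in annotation and size and differed in where they were expressed. Each carries the InterPro family entry for glucose-methanol-choline oxidoreductases, and their annotated proteins are 604 to 634 residues long. LOC655686, whose RefSeq symbol is Gld, and LOC656885 are the 2 members assigned to the orthology group of FAD and quinone dependent glucose 1-dehydrogenases. LOC654977 and LOC655042 are next to each other in the gene order of the RefSeq assembly icTriCast1.1, and no other members lie within 5 genes of one another. LOC661316 is annotated as a low-quality protein model. How reads shared between such related genes were counted is not given in the sources used here, so the split of reads among members is uncertain.

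A single gene lay just outside the name. LOC656781 is called an alcohol dehydrogenase (acceptor) in its first title, carries glucose dehydrogenase only in a later title, and has the same InterPro entry. Its levels were 29.2, 10.6 and 14.04 CPM (counts relative to the library's total reads, scaled by TMM factors) in COS fat body. They were 36.1, 33.4 and 25.3 CPM in COS Malpighian tubules and 38.8, 38.2 and 59.3 CPM in control whole body. Among the members, LOC657901 was closest to the table's threshold, with a largest absolute log2 fold change of 1.23 in the authors' deposited table, against 7.33 for LOC662132.

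The libraries held 13435869 to 19866421 reads, and the listed genes took 45.7% to 67.3% of them. Replicates within a group differed by more than sampling noise, with a chi-square per degree of freedom of 21.2 to 142. Nothing in the labels ties replicates to separate animals or cultures, so the standard errors and p-values reflect only how these samples vary, and that variation may be technical. Summed fat body markers (9 genes, mainly yolk and storage proteins) stood at 15480 to 24730 CPM in COS fat body, 1063 to 1277 in COS Malpighian tubules and 4275 to 5912 in control whole body, with 5 of the 9 higher and 4 lower in fat body than in whole body. Summed tubule markers (18 genes, mainly V-type proton ATPase subunits) stood at 1988 to 2202, 5858 to 7807 and 1846 to 2063 CPM in the same order of groups, with 13 of the 18 higher and 1 lower in tubules than in whole body. Muscle markers (44 genes) summed to 41200 to 50610 CPM in COS fat body, 3880 to 4755 in COS Malpighian tubules and 19400 to 19900 in control whole body, and 0 of the 44 were at 0 in fat body. Digestive enzyme markers of gut (75 genes) summed to 7113 to 8000, 13110 to 20760 and 7586 to 8618 CPM, and 2 of the 75 were at 0 in fat body. In fat body 21 of 44 muscle genes were higher and 14 lower than in whole body, beside 32.2% and 36.9% of all genes tested. In tubules 23 of 74 gut genes tested were higher and 26 lower than in whole body, beside 32.6% and 30.2% of all genes. The higher gut sum in tubules was therefore not shared by most of that list. The part of muscle and gut RNA in the values below was not tested. Against whole body, organ and treatment changed together, so their effects cannot be told apart, and in bulk tissue fewer cells of a type cannot be told apart from less RNA per cell.

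Of the 8 members, 4 had their highest mean in COS fat body, 3 in COS Malpighian tubules and 1 in control whole body. The highest group overlapped with whole body for LOC657901 (fat body) and LOC655042 (tubules). Without tubule replicate 2 the counts were 2 in tubules and 2 in whole body. For 2 of the 8 members fat body lay above whole body and whole body above tubules with no overlap between any of the groups, as 17% of the 5358 genes tested did. For 2 others the order was tubules, whole body, fat body without overlap, as in 18.7% of the genes tested. These shares describe the genes of this table, which was selected on the same contrasts. A pair of members, LOC662132 and LOC661316, held the extremes, and each was the most abundant member in 1 organ and had at most 16 reads per library in the other.

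**Figure D1:**
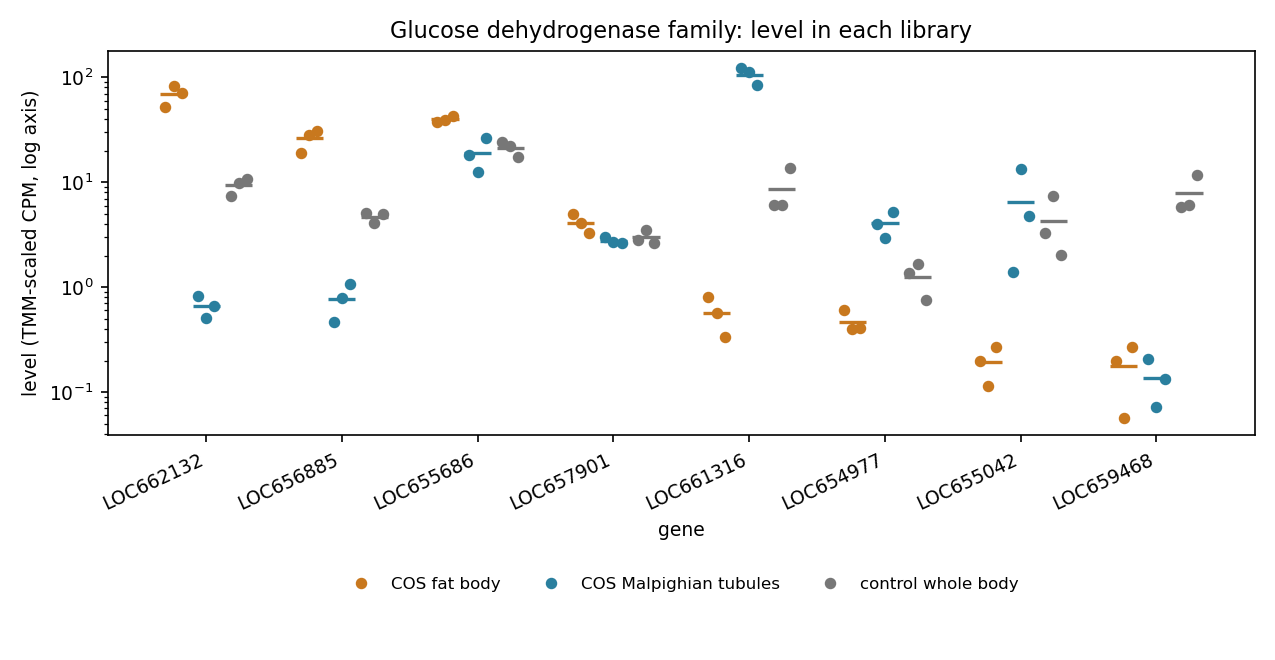
Level of each of the 8 glucose dehydrogenase genes in every library (y axis, TMM-scaled CPM on a log axis), with COS fat body left, COS Malpighian tubules in the middle and control whole body right for each gene; points are libraries and bars are group means. LOC662132 and LOC656885 are highest in fat body, LOC661316 and LOC654977 in tubules, and LOC659468 in whole body.

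LOC662132 was the most abundant member in fat body. It stood at 51.8, 82.5 and 71.6 CPM in COS fat body, 0.827, 0.505 and 0.669 CPM in COS Malpighian tubules, and 7.32, 9.81 and 10.8 CPM in control whole body. Every fat body library was above every whole body library, and every tubule library was below them. The means were 68.6 ± 15.5 CPM in fat body, 0.667 ± 0.161 in tubules and 9.32 ± 1.81 in whole body (SD, n = 3 each). In the fit, LOC662132 had a log2 fold change of 2.88 ± 0.25 (SE) for fat body over whole body and -3.77 ± 0.29 for tubules over whole body. Between the organs it was 6.65 ± 0.32 for fat body over tubules, a ratio of mean levels of 103. The tubule values rest on 16, 7 and 10 reads, against 778, 1452 and 1060 reads in fat body.

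LOC656885 followed the same order of groups at lower levels. Its libraries stood at 19.2, 28.2 and 31.1 CPM in COS fat body, 0.465, 0.794 and 1.07 CPM in COS Malpighian tubules, and 5.05, 4.05 and 5.01 CPM in control whole body. None of the groups overlapped. Its log2 fold change was 2.47 ± 0.30 for fat body over whole body, -2.61 ± 0.34 for tubules over whole body and 5.08 ± 0.35 for fat body over tubules. For both genes fat body replicate 1 was the lowest of the fat body libraries, at 0.673 times the mean of the other two for LOC662132 and 0.647 times for LOC656885. The same ratio was 1.77 for LOC661316 and 1.49 for LOC654977, each at few reads in fat body. It was 1.74 for the summed testis and sperm markers (42 genes), 4.01 for the summed egg markers (2 genes) and 2.36 for an ejaculatory bulb-specific protein that is at most 0.9996 CPM there. Their part in the members' levels was not tested.

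LOC655686, the gene with the symbol Gld, was the member with the most even level over the groups among those above 10 CPM in any group. It stood at 37.5, 39.2 and 43.1 CPM in COS fat body, 18.2, 12.6 and 26.6 CPM in COS Malpighian tubules, and 24.04, 22.1 and 17.4 CPM in control whole body. The fat body libraries lay above all others, while tubules and whole body overlapped. Fitted log2 fold changes for LOC655686 were 0.92 ± 0.27 for fat body over whole body, -0.15 ± 0.27 for tubules over whole body and 1.06 ± 0.27 for fat body over tubules. The first of these lost its call when libraries were scaled by their totals alone (0.65) and when control replicate 3 and fat body replicate 1 were left out together (0.84).

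LOC657901 differed least between the groups. It stood at 4.93, 4.09 and 3.31 CPM in COS fat body, 3.0, 2.67 and 2.61 CPM in COS Malpighian tubules, and 2.79, 3.54 and 2.63 CPM in control whole body. Whole body overlapped with both organs, and the fat body libraries lay above the tubule libraries by a small margin. For LOC657901 the log2 fold change was 0.46 ± 0.25 for fat body over whole body, -0.11 ± 0.25 for tubules over whole body and 0.57 ± 0.25 for fat body over tubules. None of these passed the threshold of an adjusted p under 0.05. The last one passed with other scaling factors, from 0.66 with upper-quartile factors to 1.23 with the authors' size factors, in DESeq2 (0.72) and without fat body replicate 3 (0.71).

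LOC661316 was the most abundant member in tubules and was close to absent in fat body. It stood at 0.800, 0.568 and 0.338 CPM in COS fat body, 122, 112 and 83.7 CPM in COS Malpighian tubules, and 6.09, 6.01 and 13.7 CPM in control whole body. Every tubule library was above every whole body library, and every fat body library was below them. The means were 0.568 ± 0.231 CPM in fat body, 106 ± 19.9 in tubules and 8.59 ± 4.39 in whole body (SD, n = 3 each). On the log2 scale LOC661316 differed by -3.90 ± 0.44 for fat body over whole body, 3.62 ± 0.39 for tubules over whole body and -7.52 ± 0.49 for fat body over tubules. The fat body values rest on 12, 10 and 5 reads, against 2361, 1553 and 1252 reads in tubules.

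LOC654977 had the same order of groups at low levels. It stood at 0.600, 0.398 and 0.405 CPM in COS fat body, 4.03, 2.96 and 5.22 CPM in COS Malpighian tubules, and 1.36, 1.65 and 0.752 CPM in control whole body. None of the groups overlapped. As log2 fold changes, these differences were -1.41 ± 0.41 for fat body over whole body, 1.70 ± 0.36 for tubules over whole body and -3.11 ± 0.40 for fat body over tubules.

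LOC655042, its neighbour in the gene order, was low in fat body and variable in the other groups. It stood at 0.200, 0.114 and 0.270 CPM in COS fat body, 1.40, 13.3 and 4.75 CPM in COS Malpighian tubules, and 3.31, 7.40 and 2.01 CPM in control whole body. Fat body lay below all other libraries, with 3, 2 and 4 reads, while tubules and whole body overlapped. LOC655042 had log2 fold changes of -4.41 ± 0.98 for fat body over whole body, 0.61 ± 0.73 for tubules over whole body and -5.02 ± 0.99 for fat body over tubules. Tubule replicate 2 decided the direction of the second, which was -0.48 without that library, and the third was -3.93 without it. Without control replicate 2 the first was -3.76 and the second 1.27. Tubule replicate 2 was also the library with the highest sum of gut markers, at 20760 CPM, against 13110 and 14620 in tubule replicates 1 and 3. The 2 egg markers summed to 874, 287 and 1235 CPM in tubule replicates 1 to 3, with replicate 2 the lowest. In whole body replicates 1 to 3 they summed to 74.5, 145 and 47.5 CPM, with replicate 2 the highest. The part of gut and ovary RNA in these values was not tested.

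LOC659468 was close to absent in both organs and present in whole body. It stood at 0.200, 0.0568 and 0.270 CPM in COS fat body, 0.207, 0.0721 and 0.134 CPM in COS Malpighian tubules, and 5.77, 6.01 and 11.8 CPM in control whole body. These levels come from 8 reads over the 3 fat body libraries, 7 over the 3 tubule libraries and 372 over the 3 whole body libraries. The organs overlapped with each other and lay below every whole body library. The log2 fold change was -5.46 ± 0.54 for fat body over whole body, -5.70 ± 0.55 for tubules over whole body and 0.24 ± 0.73 for fat body over tubules. The level of whole body includes organs that neither dissection holds. The list for male accessory gland and ejaculatory duct held 1 gene, annotated as an ejaculatory bulb-specific protein 3 (LOC103313838). This gene stood at 0.338 to 0.9996 CPM in fat body, 0.602 to 0.879 in tubules and 110 to 180 in whole body. It was picked by its name alone, and the organ that expresses it was not tested. The part of organs outside both dissections in the level of LOC659468 was not tested.

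Control replicate 3 was the highest whole body library for LOC661316, LOC659468 and LOC662132. It was the lowest for LOC655042, LOC654977, LOC655686 and LOC657901. Its level over the mean of control replicates 1 and 2 was 2.26 for LOC661316 and 2.0 for LOC659468. The ratio was 0.374 for LOC655042 and 0.50 for LOC654977, and between 0.753 and 1.27 for the other 4 members. The ratio over all 5358 genes tested was taken with 0.5 CPM added to each level. Its median was 0.984, with 5th and 95th percentiles of 0.642 and 2.22. The members' ratios hold no such addition, which matters most at low levels, so the percentiles are not on the same scale. Without the addition, the ratio was 2.21 for the sum of 42 testis and sperm markers and 0.432 for the sum of the egg markers. It was 1.55 for the ejaculatory bulb-specific protein. The testis and sperm markers summed to 1361 to 2943 CPM in COS fat body, 1391 to 2450 in COS Malpighian tubules, and 2825, 2796 and 6202 in the controls, with 0 of 42 at 0 in fat body or tubules. Their part in the level of these members was not tested.

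**Figure D2:**
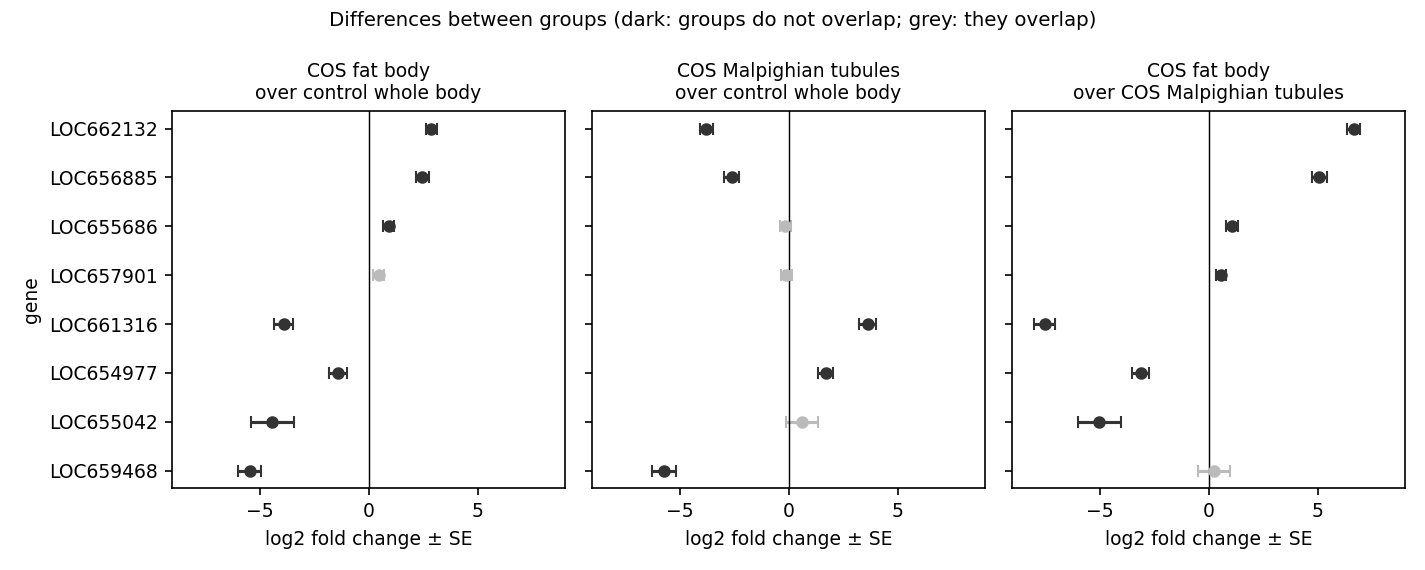
Log2 fold change ± SE of the 8 members (x axis) in 3 comparisons, with 1 gene per row; dark points are genes whose libraries do not overlap between the groups compared, grey points those that overlap. The left and middle panels share the whole body libraries. LOC662132 and LOC656885 lie on the right in the left panel and on the left in the middle panel, and LOC661316 and LOC654977 the other way round.

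In numbers of calls, the members were close to the table they were taken from. For COS fat body over control whole body, 3 of 8 members were higher at an adjusted p under 0.05 (37.5%) and 4 were lower (50%), where 32.2% and 36.9% of all genes tested were. For COS Malpighian tubules over control whole body, 2 were higher (25%) and 3 were lower (37.5%), beside 32.6% and 30.2% of all genes. For COS fat body over COS Malpighian tubules, 3 were higher and 3 were lower (37.5% each), beside 38.8% and 41% of all genes. The groups did not overlap for 3 higher and 4 lower members in the first comparison, where 36.5% and 41.5% of all genes did not. They did not overlap for 2 higher and 3 lower members in the second, beside 34.3% and 38.1% of all genes. In the third they did not overlap for 4 higher and 3 lower members, beside 39.7% and 40.6%. Nothing about the family is read from these shares, since the same contrasts chose the genes. The median log2 fold change of the members was -0.48, -0.13 and 0.41 in the 3 comparisons in that order, beside -0.22, -0.12 and -0.24 over all genes tested.

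The summed level of the family was alike in the organs although its members were not. The sum was 140 ± 21.8 CPM in COS fat body, 140 ± 13.5 in COS Malpighian tubules and 60.1 ± 4.17 in control whole body (SD, n = 3 each). By library it ran from 115.3 to 155.1 CPM in fat body, from 125 to 150 in tubules and from 55.7 to 64.0 in whole body. The ratio of mean sums was 2.33 for fat body over whole body, 2.33 for tubules over whole body and 1.002 for fat body over tubules. With LOC656781 added, the ratio over whole body was 1.499 for fat body and 1.625 for tubules. For tubules over whole body it was 1.66 on the authors' normalized signal and 2.85 on their TPM. For fat body over whole body it was 2.63 on that signal and 1.94 on their FPKM. The ratio of the organs depended on the scale: it was 1.58 on the authors' normalized signal and 0.70 on their FPKM.

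To compare levels between genes, CPM were divided by the coding length in kb (3 bases per residue of the annotated protein). In fat body the levels per kb were 36.6 ± 8.28 CPM for LOC662132, 21.4 ± 1.54 for LOC655686 and 14.2 ± 3.36 for LOC656885. LOC657901 followed at 2.27 ± 0.448 CPM per kb, and the libraries of these 4 genes did not overlap between neighbours in the order. The other 4 members were at 0.314 ± 0.128 CPM per kb or less, where LOC661316 overlapped with LOC654977 and LOC655042 with LOC659468.

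In tubules LOC661316 led with 58.46 ± 10.97 CPM per kb, above LOC655686 at 10.2 ± 3.77 in every library. LOC655042 came next at 3.44 ± 3.26 CPM per kb, LOC654977 at 2.14 ± 0.594 and LOC657901 at 1.52 ± 0.116. From LOC655686 down to LOC657901 each gene overlapped with the next one in the order. LOC656885 and LOC662132, which overlapped with each other, were at 0.421 ± 0.164 and 0.356 ± 0.0859 CPM per kb, and LOC659468 was at 0.0747 ± 0.0366.

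In whole body LOC655686 was first with 11.3 ± 1.84 CPM per kb. LOC662132 at 4.97 ± 0.964, LOC661316 at 4.74 ± 2.42 and LOC659468 at 4.26 ± 1.85 CPM per kb overlapped with one another. LOC655042 at 2.24 ± 1.49 CPM per kb overlapped with LOC656885 at 2.55 ± 0.308 above it and with LOC657901 at 1.65 ± 0.269 below it. LOC654977 was last at 0.6586 ± 0.23997 CPM per kb, below LOC657901 in every library.

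**Figure D3:**
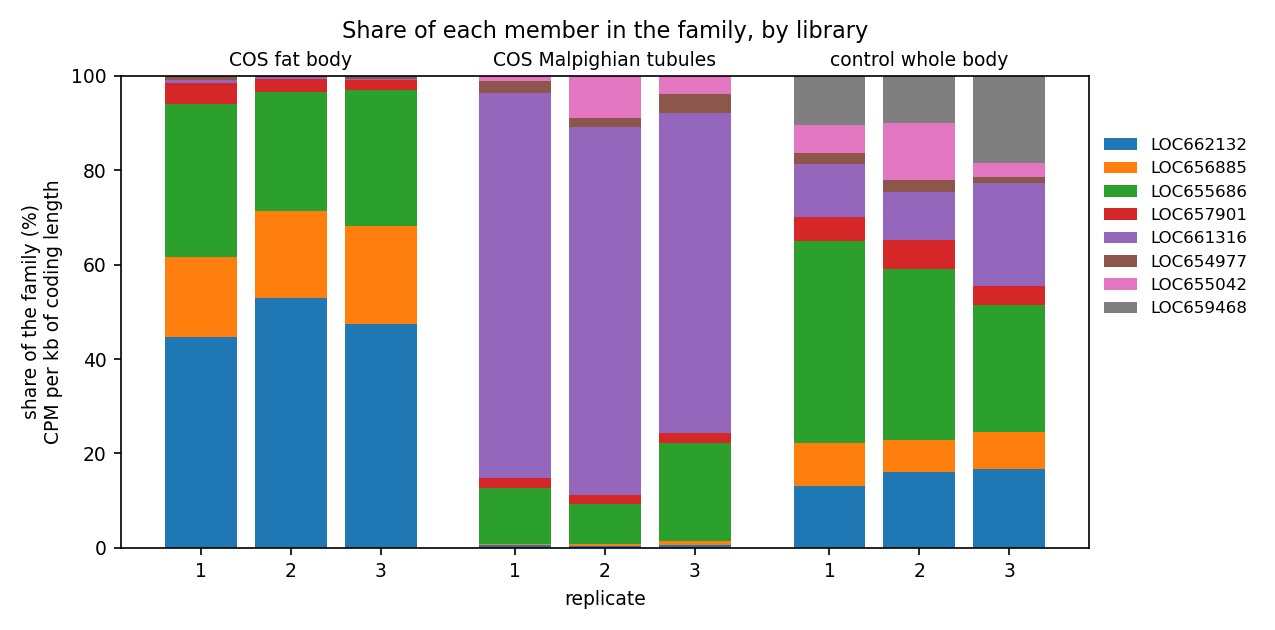
Share of each member in the family's summed level (y axis, percent of CPM per kb of coding length) in each library, with COS fat body left, COS Malpighian tubules in the middle and control whole body right. LOC662132 (blue) takes 44.7% to 52.9% in fat body and LOC661316 (purple) 67.8% to 81.7% in tubules.

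As shares of the family on that scale, LOC662132 made up 48.3% ± 4.18 of fat body, 0.466% ± 0.110 of tubules and 15.3% ± 1.97 of whole body (SD, n = 3 each). LOC661316 made up 0.441% ± 0.248 of fat body, 75.8% ± 7.17 of tubules and 14.4% ± 6.41 of whole body. LOC655686 held 28.8% ± 3.63 in fat body, 13.7% ± 6.41 in tubules and 35.3% ± 8.07 in whole body. LOC659468 held 0.132% ± 0.0818 in fat body, 0.0974% ± 0.0441 in tubules and 12.98% ± 4.762 in whole body. The authors' TPM gave the same leaders in the organs, with 68.2% for LOC662132 in fat body and 90.2% for LOC661316 in tubules. In whole body the TPM put LOC661316 first in place of LOC655686, at 22.98% ± 6.80 (SD). There LOC659468 held 21.91% ± 4.77, LOC662132 21.61% ± 2.64 and LOC655686 21.28% ± 7.04 on TPM. Those values divide by a deposited gene length that ran from 1905 to 10019 bases over the members, and for 75.3% of the genes matched to RefSeq that length was within 10% of the gene's whole span with introns.

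The 9 libraries fall into 3 groups, so a correlation over them mostly compares group means and is given as a description only. On log2(CPM + 0.5), LOC662132 and LOC656885 had a Pearson correlation of 0.987, LOC661316 and LOC654977 of 0.924, and LOC662132 and LOC661316 of -0.984. Outside the family, the 4 described genes most like LOC662132 among 2216 candidates were LOC107397693 (golgin IMH1, r = 0.996), LOC662235 (an Ig-like and fibronectin type-III domain protein, r = 0.995), LOC664099 (scavenger receptor class B member 1-like, r = 0.995) and LOC657238 (couch potato, an RNA-binding protein in Drosophila, r = 0.994). LOC664099 stood at 167, 204 and 206 CPM in COS fat body, 12.4, 11.8 and 13.3 in COS Malpighian tubules, and 54.4, 63.5 and 47.0 in control whole body. Most like LOC661316 were LOC661858 (prominin-like, r = 0.995), LOC658422 (malignant T-cell-amplified sequence 1 homolog, r = 0.994), LOC657167 (NELL1, r = 0.993) and LOC663649 (WD repeat-containing protein 75-like, r = 0.991). LOC657167 stood at 17.3, 15.3 and 13.6 CPM in COS fat body, 124, 169 and 106 in COS Malpighian tubules, and 37.52, 37.02 and 45.74 in control whole body. All 4 of these genes had a smaller ratio between tubules and fat body than LOC661316.

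Other enzymes that use glucose and the sugar phosphates were in the table in small numbers, and their counts carry the same selection on fold change. All 3 listed genes of the pentose phosphate pathway, which turns glucose 6-phosphate into pentose phosphates and NADPH, were higher in COS fat body than in control whole body and than in COS Malpighian tubules. Of all genes tested, 32.2% were higher in the first of these comparisons and 38.8% in the second. The median log2 fold change of the 3 genes was 0.89 for fat body over whole body and 0.72 for fat body over tubules, beside -0.22 and -0.24 over all genes. For tubules over whole body, 1 was higher, 1 was lower and 1 was not called, where 32.6% of all genes were higher and 30.2% lower. The median of the 3 genes there was 0.076, beside -0.12 over all genes. The transketolase-like LOC660692, which moves carbon units between sugar phosphates, stood at 1181 ± 134 CPM in fat body, 717 ± 145 in tubules and 680 ± 30.4 in whole body. The probable transaldolase LOC656816, which works beside it, stood at 444 ± 41.5, 321 ± 46.1 and 240 ± 16.8 CPM in the same order of groups.

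Of 6 genes that release glucose from disaccharides and larger sugars or phosphorylate it, 1 was higher and 3 were lower in COS fat body than in control whole body, where 32.2% and 36.9% of all genes tested were. In COS Malpighian tubules 2 were higher and 1 was lower than in control whole body, beside 32.6% and 30.2% of all genes. For fat body over tubules 1 was higher and 3 were lower, beside 38.8% and 41%. Hexokinase type 2 (LOC659227), which commits glucose to metabolism by phosphorylating it, was the one that was higher in fat body, at 170.8 ± 28.01 CPM, against 38.95 ± 9.696 in tubules and 92.4 ± 4.35 in whole body. Its log2 fold change was 0.89 ± 0.21 for fat body over whole body, -1.25 ± 0.21 for tubules over whole body and 2.13 ± 0.22 for fat body over tubules. Maltase 2 (LOC664111), which splits maltose and related sugars, varied between libraries. It stood at 287, 250.4 and 72.0 CPM in fat body, 150.4, 380 and 336 in tubules, and 81.5, 124 and 101.8 in whole body.

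In the list of phenoloxidase and melanin genes, 14 of 18 were higher and 1 was lower in COS fat body than in control whole body, beside 32.2% and 36.9% of all genes tested. Their median log2 fold change was 1.23, beside -0.22 over all genes. In COS Malpighian tubules 3 were higher and 14 were lower than in control whole body, beside 32.6% and 30.2%, with a median of -1.23 beside -0.12. For fat body over tubules 13 were higher and 3 were lower, beside 38.8% and 41%, with a median of 2.31 beside -0.24. The summed level of the list went the other way from its median in tubules: it was 2580 to 2707 CPM in fat body, 1862 to 2239 in tubules and 985 to 1111 in whole body. Laccase 2 (Lac2), named here after its values were seen, held most of that sum in tubules, at 545 ± 98.4 CPM in fat body, 1518 ± 167 in tubules and 163.5 ± 5.43 in whole body. This phenol oxidase is known from Tribolium for tanning of the cuticle. The yellow-family gene Y-f, whose relative in Drosophila acts on dopachrome, stood at 406 ± 45.2 CPM in fat body, 117 ± 55.7 in tubules and 217 ± 39.4 in whole body. Y-1, another yellow-family gene, stood at 228 ± 21.2, 179 ± 37.7 and 95.3 ± 8.47 CPM in the same order of groups. Cuticle markers, of which 38 of 43 were tested, summed to 476 to 503 CPM in fat body, 409 to 571 in tubules and 332 to 383 in whole body, and the part of cuticle or epidermis in the melanin genes was not tested.

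**Figure D4:**
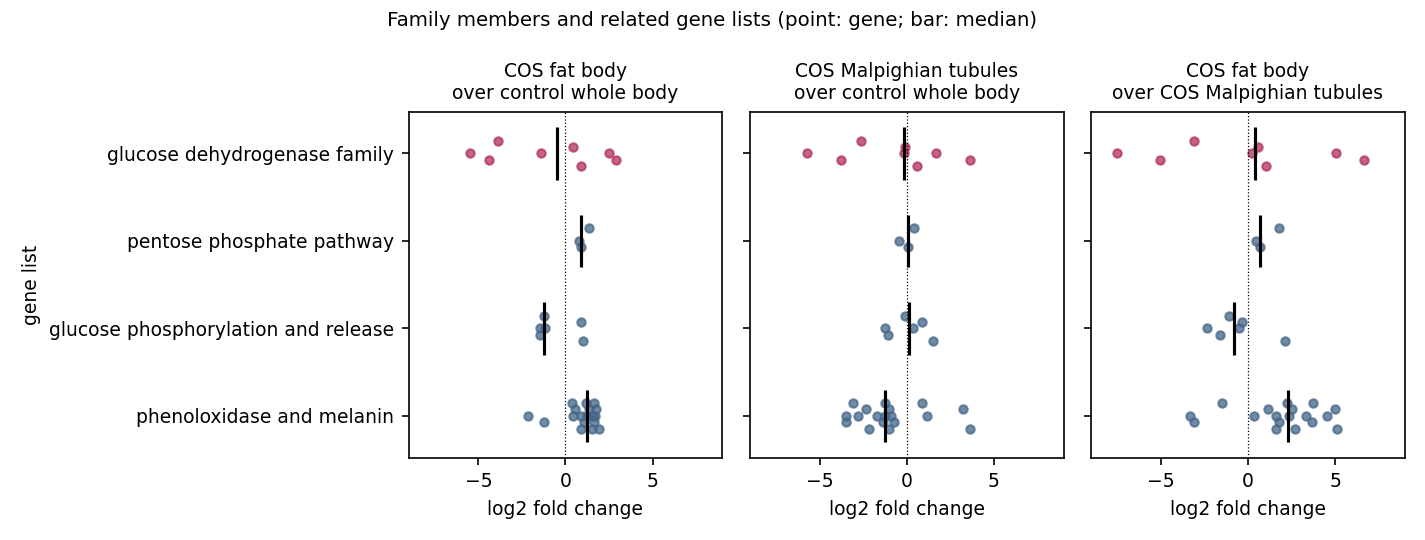
Log2 fold change (x axis) of the 8 glucose dehydrogenase genes and of 3 lists of related enzymes in the 3 comparisons; each point is a gene and each bar the median of its list. The glucose dehydrogenases spread from -7.52 to 6.65 in the right panel, while the 3 pentose phosphate genes lie together above 0.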

How the data were processed

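RNA from 9 libraries in 3 groups of 3 was sequenced. TRIzol extraction, DNase I treatment and alignment to Tcas5.2 are named per the labels' protocols. Trimmomatic 0.32 comes from the submitters' processing notes, while aligner and counter are not given in these sources. The authors deposited expected counts for each gene, per the file headers, and all of them were whole numbers. A DESeq-normalized signal, FPKM, TPM and the authors' log2 fold changes were also deposited, per the file headers. Library totals were recovered from the deposited counts, FPKM and lengths, and the authors' size factors from counts over signal.

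The counts, rounded, were tested with edgeR 4.0.16 in R 4.3.3 (quasi-likelihood F test, TMM factors, recovered totals as library sizes, filterByExpr, 9 libraries in 1 fit). Benjamini-Hochberg adjustment ran over the 5358 genes tested, 109 genes fell to the filter, and all 8 members were tested. Each SE was obtained as |log2 fold change| over the root of F, and it may be too small where reads are few. The procedure was run on simulated counts with a fixed spread and few changed genes. In these data many more genes differ, so that run does not vouch for the values given here.

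Lists and markers were picked by words in the description. A single text match for other GMC oxidoreductases, a kinase and myosin, was removed, which left that list empty. Named genes are all members, the 4 genes most correlated with LOC662132 and with the member of highest mean TPM, and the 2 members of each list with the highest mean TPM; the markers are given as sums. Members and lists were chosen with earlier results of these data known. Alternatives were other scaling factors, DESeq2 1.42.0, no filter, other library sizes, a fit of the compared groups alone, a replicate block and leaving out libraries. Of the identifiers, 5017 of 5467 matched RefSeq genes of icTriCast1.1, used for names and gene order only. No sequences are printed.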

Additional observations from a re-analysis of the deposited data

Results flagged for a closer look

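In 4 members the organs differed from whole body in opposite directions, with every library of COS fat body on one side of the whole body libraries and every library of COS Malpighian tubules on the other. The log2 fold change of fat body over tubules was 6.65 for LOC662132 and 5.08 for LOC656885, which were higher in fat body and lower in tubules than in whole body. It was -7.52 for LOC661316 and -3.11 for LOC654977, which were lower in fat body and higher in tubules. Fat body over tubules is itself the difference between the organs' comparisons with whole body, and all 4 genes passed it at an adjusted p under 0.05 in edgeR. The table lists genes by this contrast among others, so these calls are a description. Among the 5358 genes tested, 17% had the first order of groups without overlap and 18.7% the second. Both comparisons with whole body share the same 3 control libraries.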

How the results depend on the processing

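Of 156 recomputed counts of members called or highest in a group, 154 kept to within 1.5 times their main value. The count of members highest in whole body was 1 and became 2 with LOC656781 included by its later title. It ran from 1 to 2 over the settings that leave out 1 library, and was 2 without tubule replicate 2. Of 488 recomputed values of single members and family sums, 467 kept their direction and call (for sums, moved by less than 1 SD), and 5 reversed, all of them in comparisons that were not called. For Malpighian tubules over whole body, LOC655686 was 0.077 and LOC655042 was -0.48 without tubule replicate 2, and LOC657901 was 0.025 without control replicate 2. For fat body over tubules, LOC659468 was -0.19 without fat body replicate 3 and -0.021 without tubule replicate 2. Over the settings that leave out libraries, these 4 ran from -0.46 to 0.077, from -0.48 to 1.27, from -0.20 to 0.025 and, for LOC659468, from -0.19 to 0.69. The cause was not tested. In place of TMM, the size factors of the authors moved the median log2 fold change of all genes by 0.16 for fat body over whole body, by -0.49 for tubules over whole body and by 0.66 for fat body over tubules, and the other scalings moved it by -0.26 to 0.20. Whether replicate numbers pair the samples was not settled. Correlations of same-numbered libraries around their group means ran from -0.49 to 0.411, and differently numbered libraries were not compared. With a replicate block, 3 members were called higher and 4 lower for fat body over whole body, 2 and 3 for tubules over whole body, and 3 and 3 for fat body over tubules, the same counts as without it. The share of all genes called was not computed for the blocked fit, so these counts have no base rate beside them. Depth limits the lowest members: LOC655042 in fat body and LOC659468 in both organs rest on 1 to 4 reads per library.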
